A study of Mus musculus with 20 samples.

Results

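Mouse embryonic stem cells sorted as positive for a Foxa2 reporter (Foxa2GFPplus) were compared with cells sorted as negative for it (Foxa2GFPminus), across the genes of chromosomes 1 to 19. These are 49858 of the 54146 gene rows of the bulk count table. Of them, 13114 had enough reads to be tested and 36744 did not, among which 25645 had no read in any of the 5 libraries. The series holds 20 samples, single-cell and bulk, and asks which combined signals drive these cells to differentiate. All 5 libraries come from 129P2/OlaHsd male embryonic stem cells, and the QuantSeq protocol sequences the 3′ end of polyadenylated transcripts, so that a transcript gives about the same number of reads whatever its length. The stem cells were kept in serum with LIF, GSK3 inhibitor XV and UO126, and these inhibitors were withdrawn for differentiation. Foxa2GFPplus has 3 libraries, numbered 1, 3 and 4, and Foxa2GFPminus has 2, numbered 1 and 2, and the Foxa2GFPplus library numbered 2 was not analysed here. Per the labels, cells of both groups were separated by flow cytometry and RNA was then isolated. How the reporter was built, whether it marks 1 clone, which differentiation media and signals the sorted cells had received, and whether libraries of a group came from separate cultures are all unstated in the labels. The p-values therefore measure the spread between sorted libraries, which may be technical. The estimate of this spread draws on these 5 libraries and on 2 of another sorted population, Tdgf1GFPplus.

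Foxa2 is a forkhead transcription factor that binds its sites in closed chromatin. In the gastrulating mouse embryo it marks the anterior primitive streak and what this region forms, the node, the notochord and the definitive endoderm, and later the floor plate of the neural tube. The node and notochord secrete Shh and the BMP antagonists Chrd and Nog, and pluripotent cells that leave the naive state shut down factors such as Esrrb, Zfp42 and Nr5a2.

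The libraries differed in more than the sort. Read totals lay between 5988930 and 14874469 in Foxa2GFPplus and between 2906282 and 3469775 in Foxa2GFPminus. The gene model Gm42418, which overlaps a ribosomal RNA repeat, took 15.7% to 26.9% of the reads in Foxa2GFPplus and 29.7% and 41.0% in Foxa2GFPminus, and mitochondrial genes took 4.23% to 5.49% in Foxa2GFPplus and 8.19% to 8.45% in Foxa2GFPminus. Foxa2GFPplus 1 stood apart from Foxa2GFPplus 3 and 4: on log2 CPM of 13635 genes it correlated at 0.911 with Foxa2GFPplus 3, 0.883 with Foxa2GFPplus 4 and 0.911 with Foxa2GFPminus 1, while Foxa2GFPplus 3 and 4 correlated at 0.975. Summed counts of 4 Y-linked genes were 0, 71 and 65 in Foxa2GFPplus 1, 3 and 4 and 0 in both Foxa2GFPminus libraries. The unsorted bulk libraries had 0 to 4. The part of these differences in the results was not tested. Levels are given as CPM (read counts scaled by depth and by TMM, a correction for composition), in library order 1, 3 and 4 for Foxa2GFPplus and 1 and 2 for Foxa2GFPminus. Fold changes are log2, Foxa2GFPplus over Foxa2GFPminus, with their standard errors.

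Foxa2 (ENSMUSG00000037025, chr2:148042877-148046969 on the minus strand of mm10) followed the sort. It had 195, 302 and 312 CPM in Foxa2GFPplus, against 10.7 and 7.64 CPM in Foxa2GFPminus. The groups were 29.4-fold apart and did not overlap (log2 fold change 4.88 ± 0.72, edgeR adjusted p = 0.00577). The averages were 270 ± 65.0 CPM in Foxa2GFPplus (SD, n = 3) and 9.18 ± 2.18 CPM in Foxa2GFPminus (SD, n = 2). The Foxa2GFPminus cells still gave 28 and 21 Foxa2 reads. In CPM of read totals, the 4 barcodelet-transfected and 2 untransfected unsorted bulk libraries lay between 14.1 and 19.6, above the Foxa2GFPminus libraries at 9.63 and 6.05 on the same scale. These totals include Gm42418, which took 29.7% and 41.0% of reads in Foxa2GFPminus and 2.63% to 10.6% in the unsorted libraries. Its part in this difference was not tested. Foxa2GFPplus 1 alone gave a log2 fold change of 4.40 ± 0.51 and Foxa2GFPplus 3 and 4 gave 5.04 ± 0.57. Without Foxa2GFPminus 1 the adjusted p was 0.0758 at a log2 fold change of 5.16, and without Foxa2GFPminus 2 it was 0.187 at 4.66.

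**Figure D1:**
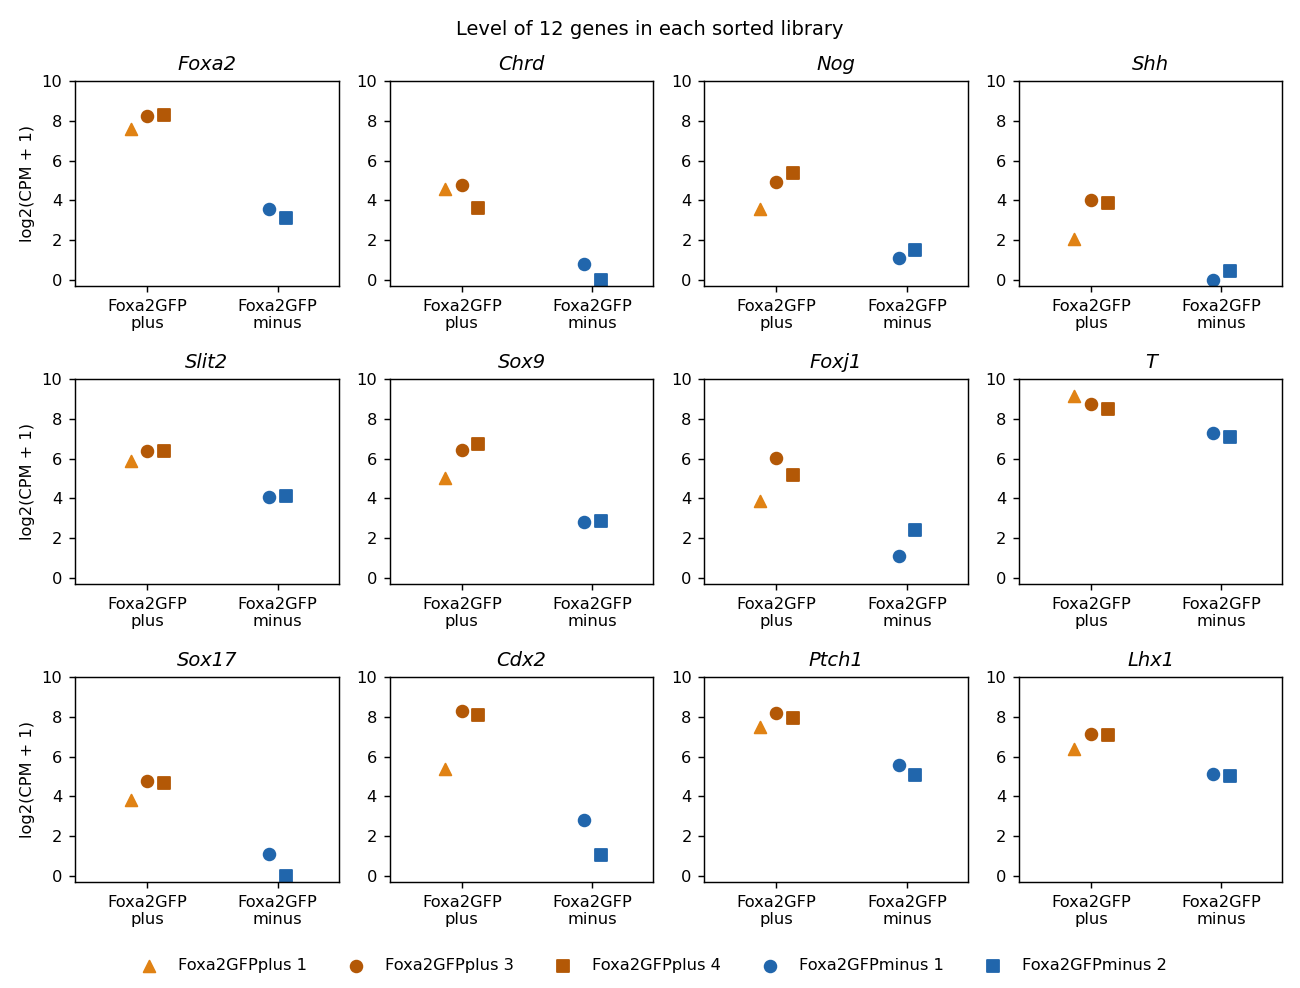
Level of 12 genes, as log2(CPM + 1) on the vertical axis, in the 3 Foxa2GFPplus libraries (orange; triangle, library 1) and the 2 Foxa2GFPminus libraries (blue). Each point is 1 library. In every panel the 3 Foxa2GFPplus points lie above both Foxa2GFPminus points, and for Cdx2 Foxa2GFPplus 1, at 41.1 CPM, lies far below Foxa2GFPplus 3 and 4, at 311 and 269.9 CPM.

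Few genes passed the test between the sorted populations, and with TMM scaling more fell than rose. Of the autosomal genes tested, 113 (0.862%) rose and 196 (1.49%) fell in Foxa2GFPplus at an edgeR adjusted p under 0.05, with a median log2 fold change of 0.06 over all of them. Of these genes, 111 that rose and 160 that fell code for proteins, and the 15 small nucleolar RNA genes among them fell. In all 113 and all 196 the values of the groups did not overlap, so for a called gene a lack of overlap adds nothing to the call. The share of all tested genes without overlap is not given here. At an unadjusted p under 0.05 edgeR had 1384 (10.6%) higher and 1231 (9.39%) lower. The counts depended on single libraries. Without Foxa2GFPplus 1 they were 1220 higher (9.6%) and 1546 lower (12.2%), without Foxa2GFPplus 3 they were 31 and 98, and without Foxa2GFPplus 4 they were 64 and 147. Without Foxa2GFPminus 1 they were 22 (0.151%) and 79 (0.543%). Without Foxa2GFPminus 2 they were 0 (0.0%) and 41 (0.283%) by edgeR, with 824 and 757 at an unadjusted p under 0.05. Besides Foxa2, 55 of the genes named here by rule passed, of which 27 kept their call without Foxa2GFPminus 1 and 16 without Foxa2GFPminus 2. These 16 all fell: Dnah8, Dnmt3l, Dppa3, Esrrb, Hist1h2ab, Hist1h2ae, Hist1h2an, Klf2, Myb, Mylpf, Nr5a2, Pecam1, Platr10, Tdh, Utf1 and Zfp42. Among the rises, Chrd, Col4a1, Igfbp5, Kif26b, Mnx1, Rflnb, Sox17 and Tmprss2 kept their call without Foxa2GFPminus 1. Each of these rises had a higher level in Foxa2GFPminus 1 than in Foxa2GFPminus 2, so leaving out Foxa2GFPminus 1 lowered the level they were set against. Fits with a lone Foxa2GFPminus library assume that it varies as the other groups do. Other tools called more, 459 (3.5%) higher and 480 (3.66%) lower by DESeq2 and 896 (6.83%) and 1649 (12.6%) by limma-voom with sample weights. Scaling by read totals instead of TMM shifted the median over all tested genes to 0.62 and gave 701 higher (5.35%) and 143 lower (1.09%), so that 82.9% of all calls were higher, against 36.7% with TMM.

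**Figure D2:**
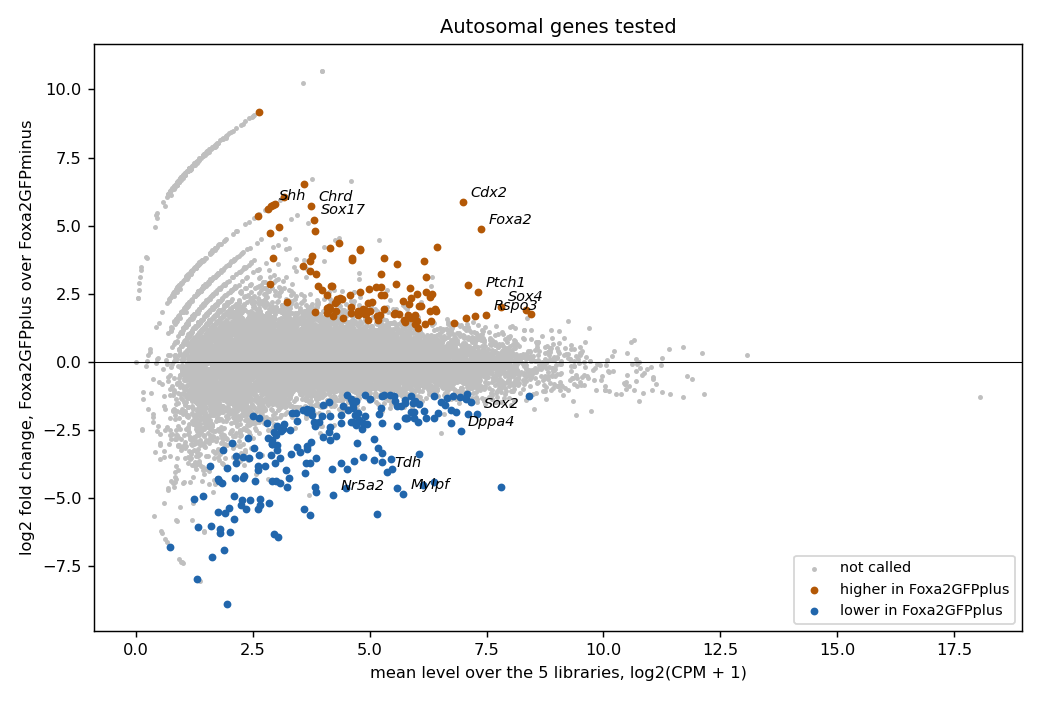
Log2 fold change of Foxa2GFPplus over Foxa2GFPminus on the vertical axis against the mean level over the 5 libraries, log2(CPM + 1), for the 13114 autosomal genes tested. Orange points are the 113 genes that rose, blue points the 196 that fell, and grey points the rest; the curved lines of grey points at low levels are genes with no or few reads in 1 group.

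Of 15 node and notochord markers, 13 were tested and 7 rose, Foxa2 itself included, against 0.862% of all autosomal genes, and 0 fell. The rise of Foxa2 comes with the sort, here and in the other lists that hold it. The list had a median log2 fold change of 3.76, or 2.35 when genes with no Foxa2GFPminus read are set at their lower bound. Chrd, which encodes the BMP antagonist chordin (chr16:20733127-20742384), had 23.1, 26.8 and 11.2 CPM in Foxa2GFPplus, against 0.766 and 0 CPM in Foxa2GFPminus (log2 fold change 5.71 ± 0.89, edgeR adjusted p = 0.00792). Its groups did not overlap, and its reads may include some of Thpo, which overlaps it on the opposite strand. Nog, which encodes the BMP antagonist noggin, had 11, 29 and 40.9 CPM in Foxa2GFPplus, against 1.15 and 1.82 CPM in Foxa2GFPminus (log2 fold change 4.17 ± 0.70, edgeR adjusted p = 0.012). Foxa2GFPplus 1 was the lowest of the 3 and still above both Foxa2GFPminus libraries.

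Shh, the signal that the notochord sends to the neural tube, had 3.2, 15.1 and 13.5 CPM in Foxa2GFPplus, against 0 and 0.364 CPM in Foxa2GFPminus (log2 fold change 5.74 ± 1.21, edgeR adjusted p = 0.0334). All 3 Foxa2GFPplus libraries were higher, but Foxa2GFPplus 1 alone missed the threshold (edgeR adjusted p = 0.463). Slit2, a guidance cue, had 58.8, 81.5 and 83.8 CPM in Foxa2GFPplus, against 15.7 and 16.4 CPM in Foxa2GFPminus (log2 fold change 2.22 ± 0.32, edgeR adjusted p = 0.00532). Its values within each group were close, and the groups were well apart. Sox9, a transcription factor of the notochord and its sheath, had 31.4, 84.6 and 107 CPM in Foxa2GFPplus, against 6.13 and 6.18 CPM in Foxa2GFPminus (log2 fold change 3.60 ± 0.60, edgeR adjusted p = 0.012). Foxj1, the factor that switches on genes of motile cilia and is active in the node, had 13.5, 64 and 35.1 CPM in Foxa2GFPplus, against 1.15 and 4.36 CPM in Foxa2GFPminus (log2 fold change 3.76 ± 0.82, edgeR adjusted p = 0.0381). Sox9 and Foxj1 were both lowest in Foxa2GFPplus 1 among the sorted-positive libraries, with no overlap between groups.

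T (brachyury), which is needed for notochord formation, had the highest values of the list, 561, 429 and 355 CPM in Foxa2GFPplus, against 155 and 137 CPM in Foxa2GFPminus. It missed the threshold by a little (log2 fold change 1.62 ± 0.39, edgeR adjusted p = 0.0558), although no Foxa2GFPplus library was as low as either Foxa2GFPminus library. Foxa2GFPplus 1 alone gave an edgeR adjusted p of 0.000294, and Foxa2GFPplus 3 and 4 gave 0.00453. Noto, a homeobox gene of the node and notochord, had 10.6, 2.1 and 1.09 CPM in Foxa2GFPplus, against 0 and 0 CPM in Foxa2GFPminus. That is 126 reads in the 3 Foxa2GFPplus libraries and 0 in the Foxa2GFPminus libraries. Set against a floor of 3 reads over both Foxa2GFPminus libraries, its level was at least 5.09-fold higher in these counts, and it did not pass the test (edgeR adjusted p = 0.142). Noto was highest in Foxa2GFPplus 1. Without Foxa2GFPplus 1, 9 of 12 tested members rose, against 9.6% of autosomal genes in that fit. With Foxa2GFPplus 1 as the only Foxa2GFPplus library, 6 of 13 rose, against 0.999%. Without Foxa2GFPminus 1, 1 rose, and without Foxa2GFPminus 2, 0 did by edgeR.

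**Figure D3:**
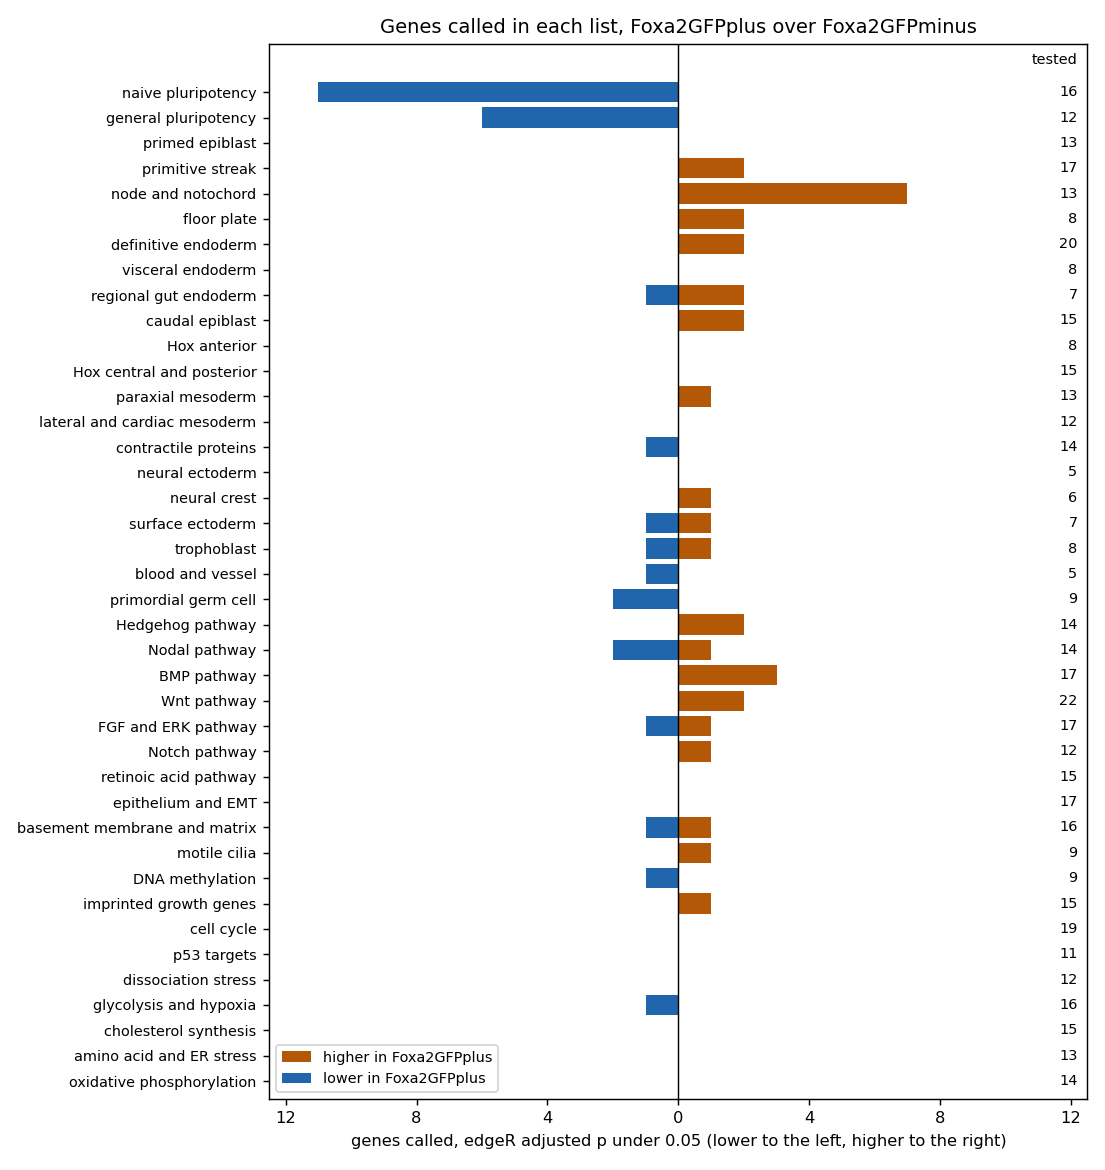
Number of genes of each list called by edgeR at an adjusted p under 0.05 (horizontal axis; higher in Foxa2GFPplus to the right, orange; lower to the left, blue), with the number tested at the right edge. The node and notochord list has 7 higher genes of 13 tested in this fit, and the naive pluripotency list 11 lower genes of 16.

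Floor plate markers share Foxa2 and Shh with that list, and these were the 2 of 8 tested members that rose. Of the 2, Foxa2 is the gene whose reporter was sorted on. Lmx1a, a transcription factor of the floor plate and roof plate, had 8.93, 4.31 and 5.53 CPM in Foxa2GFPplus, against 0 and 0 CPM in Foxa2GFPminus. It had 239 reads in Foxa2GFPplus and 0 in Foxa2GFPminus, a ratio of at least 9.66, and missed the threshold (edgeR adjusted p = 0.0543). Foxa1, the closest relative of Foxa2, had 1.35, 6.89 and 7.31 CPM in Foxa2GFPplus, against 0 and 0 CPM in Foxa2GFPminus, a ratio of at least 11.3 (edgeR adjusted p = 0.108). Both were read in every Foxa2GFPplus library and in no Foxa2GFPminus library. Foxa3, the third of the family, had the opposite sign, at 2.19, 3.11 and 3.97 CPM in Foxa2GFPplus, against 8.81 and 5.46 CPM in Foxa2GFPminus (log2 fold change -1.19 ± 0.68, edgeR adjusted p = 0.349). Of all autosomal genes tested, 0.862% rose, and 9.6% did in the fit without Foxa2GFPplus 1. Without Foxa2GFPplus 1, 7 of 8 floor plate markers rose, and without Foxa2GFPminus 1 or Foxa2GFPminus 2, 0 did by edgeR.

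In the Hedgehog pathway, the ligand Shh and the receptor Ptch1, itself a direct target of the pathway, were the 2 of 14 tested members that rose, and 0 fell. Ptch1 had 179, 286 and 248 CPM in Foxa2GFPplus, against 47.5 and 33.1 CPM in Foxa2GFPminus (log2 fold change 2.56 ± 0.42, edgeR adjusted p = 0.0113). Every Foxa2GFPplus library was above both Foxa2GFPminus libraries by a wide margin. Cdon, a co-receptor, had 22.1, 19.1 and 34.5 CPM in Foxa2GFPplus, against 7.28 and 6.18 CPM in Foxa2GFPminus (edgeR adjusted p = 0.0543). Gli1, a second target, had 62.5, 67.4 and 41.4 CPM in Foxa2GFPplus, against 23.4 and 8.37 CPM in Foxa2GFPminus, with no overlap between groups, and did not pass (edgeR adjusted p = 0.00886 without Foxa2GFPplus 1 and 0.0722 with it). Gas1, a co-receptor with the opposite sign, had 5.23, 18.5 and 14.6 CPM in Foxa2GFPplus, against 18.4 and 11.6 CPM in Foxa2GFPminus, and its groups overlapped. The list's median log2 fold change was 1.46, against 0.06 for all autosomal genes tested. Of the latter 0.862% rose, and 9.6% did in the fit without Foxa2GFPplus 1. Without Foxa2GFPplus 1, 5 of 13 rose, and without Foxa2GFPminus 1 or Foxa2GFPminus 2, 0 did by edgeR.

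Endoderm markers were mixed. Of 20 definitive endoderm markers tested, Foxa2, whose reporter was sorted on, and Sox17 rose, against 0.862% of autosomal genes, and 0 fell. Sox17, which specifies definitive endoderm (chr1:4490931-4497354), had 13, 26.5 and 24.4 CPM in Foxa2GFPplus, against 1.15 and 0 CPM in Foxa2GFPminus (log2 fold change 5.21 ± 0.88, edgeR adjusted p = 0.0124), with no overlap. Gata6 had 6.41, 31 and 35 CPM in Foxa2GFPplus, against 0.383 and 3.27 CPM in Foxa2GFPminus (log2 fold change 3.71 ± 0.92, edgeR adjusted p = 0.0611) and Gata4 had 2.19, 13.6 and 13.1 CPM in Foxa2GFPplus, against 2.68 and 0 CPM in Foxa2GFPminus (edgeR adjusted p = 0.246). For both of these endoderm and heart factors, Foxa2GFPplus 1 lay far below Foxa2GFPplus 3 and 4. Hhex, a factor of anterior endoderm and liver, had 2.19, 4.64 and 8 CPM in Foxa2GFPplus, against 1.15 and 4.73 CPM in Foxa2GFPminus, and Cer1, a secreted antagonist of Nodal and BMP, had 0.169, 1.05 and 2.19 CPM in Foxa2GFPplus, against 0.383 and 0 CPM in Foxa2GFPminus. The groups of both overlapped. Trh, which encodes thyrotropin-releasing hormone, carried the opposite sign, at 27, 56.4 and 58.1 CPM in Foxa2GFPplus, against 60.9 and 105 CPM in Foxa2GFPminus (log2 fold change -0.81 ± 0.36, edgeR adjusted p = 0.242). Epcam, an epithelial adhesion protein, had 69.8, 98.7 and 91.6 CPM in Foxa2GFPplus, against 87.7 and 118 CPM in Foxa2GFPminus (edgeR adjusted p = 0.66), with overlap. Without Foxa2GFPplus 1, 9 of 20 rose and 2 fell, against 9.6% and 12.2% of autosomal genes in that fit. Without Foxa2GFPminus 1, 1 rose, and without Foxa2GFPminus 2, 0 did.

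Visceral endoderm is the extraembryonic layer that also expresses Foxa2. Of its 16 markers 8 were tested, and 0 passed by edgeR, with 4 at an unadjusted p under 0.05 (all higher, against 10.6% of autosomal genes), 1 called higher by DESeq2 and 2 higher and 1 lower by limma-voom. The defining genes Afp and Apoa1 had at most 0.287 CPM in any library, Apoa4 was at 0 in all 5, and Ttr had 3.54, 1.15 and 1.32 CPM in Foxa2GFPplus, against 0 and 0 CPM in Foxa2GFPminus. The list summed to 376, 169.5 and 175 CPM in Foxa2GFPplus and 224 and 375 CPM in Foxa2GFPminus, and its member Apoe, which encodes a lipid carrier, had 319, 92.7 and 82.5 CPM in Foxa2GFPplus, against 198 and 317 CPM in Foxa2GFPminus. Hnf4a, a regulator of visceral endoderm and liver, had 1.69, 0.335 and 0 CPM in Foxa2GFPplus, against 0 and 0 CPM in Foxa2GFPminus.

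**Figure D4:**
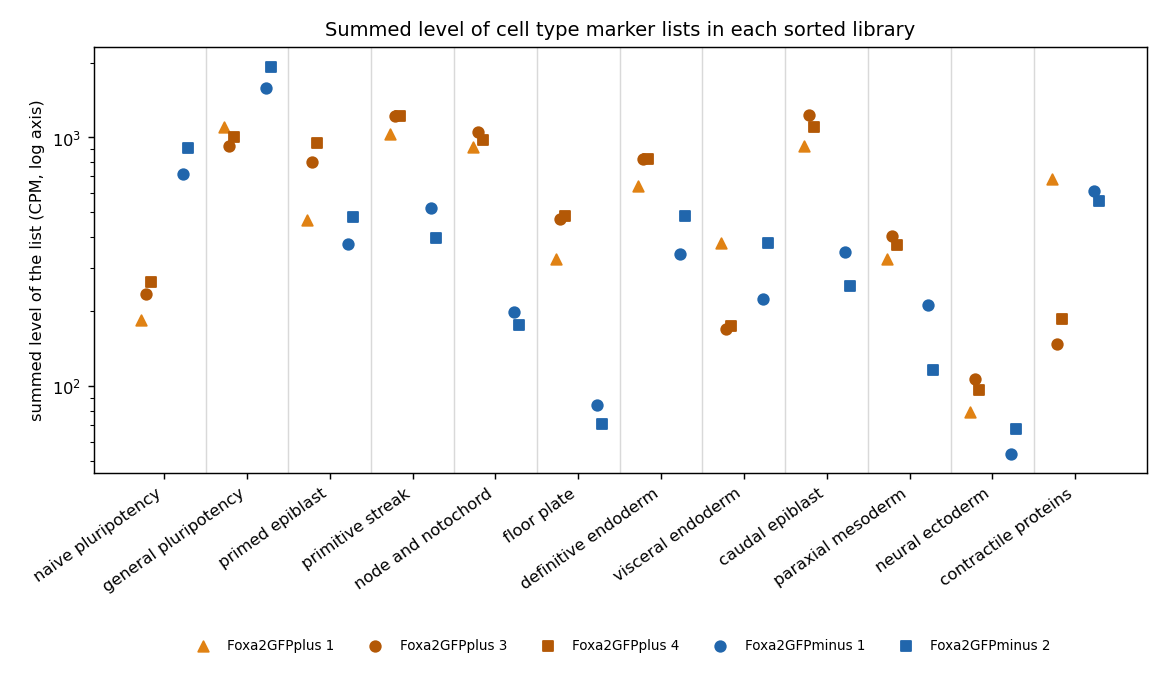
Summed level of 12 marker lists (vertical axis, CPM, log scale) in each sorted library; orange points are Foxa2GFPplus 1, 3 and 4 and blue points Foxa2GFPminus 1 and 2. Node and notochord sums are 918, 1053 and 976 CPM in Foxa2GFPplus against 199 and 176 CPM in Foxa2GFPminus. Of these sums T gives 561, 429 and 355 CPM in Foxa2GFPplus and 155 and 137 CPM in Foxa2GFPminus. Foxa2, whose reporter was sorted on, gives 195, 302 and 312 CPM in Foxa2GFPplus and 10.7 and 7.64 CPM in Foxa2GFPminus. Naive pluripotency sums are 184, 235 and 264 CPM in Foxa2GFPplus against 712 and 904 CPM in Foxa2GFPminus. For contractile proteins Foxa2GFPplus 1 lies with the Foxa2GFPminus libraries.

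Markers of the primitive streak and of the caudal epiblast, the cells that feed the trunk, had higher sums without overlap, 1037, 1219 and 1223 CPM in Foxa2GFPplus and 520.4 and 393 CPM in Foxa2GFPminus for the streak. Both lists hold T, as does the node and notochord list, so their sums are not independent. Of 17 streak markers 2 rose, Lhx1 and Fgf8. Lhx1, a LIM homeobox factor of the organizer, had 81.8, 140.4 and 136 CPM in Foxa2GFPplus, against 34.1 and 31.3 CPM in Foxa2GFPminus (log2 fold change 1.87 ± 0.36, edgeR adjusted p = 0.0232). Fgf8, a secreted growth factor of the streak and tail bud, had 28.3, 68.4 and 116 CPM in Foxa2GFPplus, against 8.81 and 10.9 CPM in Foxa2GFPminus (log2 fold change 2.85 ± 0.55, edgeR adjusted p = 0.0233). Eomes, which the early streak and endoderm need, had 36.2, 70.7 and 106 CPM in Foxa2GFPplus, against 50.2 and 36 CPM in Foxa2GFPminus (log2 fold change 0.73 ± 0.41, edgeR adjusted p = 0.344). Its groups overlapped. Among all autosomal genes tested, 0.862% rose, and 9.6% did in the fit without Foxa2GFPplus 1. Without Foxa2GFPplus 1, 11 of 17 streak markers rose, and without Foxa2GFPminus 1 or Foxa2GFPminus 2, 0 did by edgeR.

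Of 15 caudal epiblast markers, Cdx2 and Fgf8 rose. Cdx2 (chr5:147300805-147307270 on the minus strand), a homeobox factor of the caudal embryo, the hindgut and the trophoblast, had 41.1, 311 and 269.9 CPM in Foxa2GFPplus, against 6.13 and 1.09 CPM in Foxa2GFPminus (log2 fold change 5.86 ± 0.96, edgeR adjusted p = 0.0106). The level was much lower in Foxa2GFPplus 1 than in Foxa2GFPplus 3 and 4, and still above both Foxa2GFPminus libraries. Cdx1 had 5.9, 31.2 and 21.1 CPM in Foxa2GFPplus, against 8.42 and 6.18 CPM in Foxa2GFPminus (edgeR adjusted p = 0.286), and Foxa2GFPplus 1 was below both Foxa2GFPminus libraries. The share of all autosomal genes that rose was 0.862%, and 9.6% in the fit without Foxa2GFPplus 1. Without Foxa2GFPplus 1, 12 of 15 rose, and without Foxa2GFPminus 1 or Foxa2GFPminus 2, 0 did by edgeR. Of the Hox genes, on which Cdx factors are known to act, 8 anterior and 15 central or posterior ones were tested. In each of these lists 0 passed by edgeR, and 3 were higher at an unadjusted p under 0.05. Of the anterior ones DESeq2 called 2 higher and limma-voom 4, and of the others 0 and 1. Among all autosomal genes tested, 10.6% were higher at an unadjusted p under 0.05 by edgeR. DESeq2 called 3.5% of them higher and limma-voom 6.83%. Hoxb1 had 142, 119 and 65.5 CPM in Foxa2GFPplus, against 57.1 and 23.6 CPM in Foxa2GFPminus and Hoxa3 had 8.09, 17.4 and 20.8 CPM in Foxa2GFPplus, against 2.3 and 0 CPM in Foxa2GFPminus, both with no overlap. Of 8 trophoblast markers, Cdx2 rose and Tfap2c fell, at 27.1, 27.4 and 26.9 CPM in Foxa2GFPplus, against 62 and 106 CPM in Foxa2GFPminus (log2 fold change -1.63 ± 0.29, edgeR adjusted p = 0.0153).

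Promoters of genes that rose are shown for the forkhead motif TGTTTAC, a core of FOXA sites, and the octamer ATTTGCAT, the POU factor site, each searched on both strands in RefSeq windows of GRCm38.p6 from 250 bases before to 50 after a gene's start. The Cdx2 window holds both. The capitals mark GTAAACA, the forkhead motif read on the other strand, 40 bases before the start, and ATGCAAAT, the octamer read on the other strand, 147 bases before it; in Trim67 they mark TGTTTAC, 233 bases before the start.
Cdx2 (chr5:147307200-147307499, minus strand): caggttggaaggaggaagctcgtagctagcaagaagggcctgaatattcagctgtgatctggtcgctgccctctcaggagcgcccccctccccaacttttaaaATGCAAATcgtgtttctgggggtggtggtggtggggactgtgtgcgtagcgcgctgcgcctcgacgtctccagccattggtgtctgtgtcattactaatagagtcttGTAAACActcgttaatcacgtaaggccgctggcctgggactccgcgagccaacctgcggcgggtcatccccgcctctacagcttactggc
Trim67 (chr8:124792769-124793068, plus strand): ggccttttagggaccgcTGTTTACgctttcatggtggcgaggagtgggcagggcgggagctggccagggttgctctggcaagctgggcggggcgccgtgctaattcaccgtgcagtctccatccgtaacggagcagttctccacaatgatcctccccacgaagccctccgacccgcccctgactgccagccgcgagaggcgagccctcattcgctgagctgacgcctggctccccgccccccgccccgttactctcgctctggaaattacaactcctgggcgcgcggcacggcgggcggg
Of the 113 genes that rose, 79 had a window, and 7 of these (8.86%) held the forkhead motif: Abhd4, Cdx2, Furin, Limch1, Peli2, Rmnd5a and Trim67. The share was 2.29% (3 of 131) for the genes that fell, 3.12% for all autosomal genes tested and 4.12% for all 25748 autosomal genes in the table. These are descriptions of letters, with no test, and the windows of Foxa2, Chrd and Igfbp3 hold neither motif.

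Foxd1, Foxq1 and Mnx1 were in the 15 largest rises among called genes with a mean of at least 10 CPM. Foxd1, a forkhead factor, had 8.43, 21.8 and 25 CPM in Foxa2GFPplus, against 0.383 and 0 CPM in Foxa2GFPminus (log2 fold change 6.52 ± 1.20, edgeR adjusted p = 0.0203). Foxq1, another forkhead factor, had 12.3, 44.3 and 72.5 CPM in Foxa2GFPplus, against 1.91 and 2.91 CPM in Foxa2GFPminus (log2 fold change 4.15 ± 0.75, edgeR adjusted p = 0.0178). The groups of both were apart, with Foxa2GFPplus 1 the lowest of its group. Mnx1, a homeobox factor of notochord, motor neurons and pancreas, had 30.3, 42.3 and 20.4 CPM in Foxa2GFPplus, against 3.06 and 0 CPM in Foxa2GFPminus (log2 fold change 4.35 ± 0.86, edgeR adjusted p = 0.0252). Over the whole forkhead family, a grouping chosen after the values were seen, 5 of 24 tested genes rose (Foxa2, Foxd1, Foxq1, Foxj1 and Foxb1) and 0 fell. Foxa2 is the gene whose reporter was sorted on, so its rise comes with the sort. Among the Sox factors, 3 of 12 rose (Sox17, Sox9 and Sox4) and 2 fell (Sox2 and Sox15). Of all autosomal genes tested, 0.862% rose and 1.49% fell.

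Igfbp3 and Igfbp5, which encode secreted binders of insulin-like growth factors, both rose. Igfbp3 had 30.9, 159.8 and 226 CPM in Foxa2GFPplus, against 2.68 and 12 CPM in Foxa2GFPminus (log2 fold change 4.23 ± 0.92, edgeR adjusted p = 0.0375) and Igfbp5 had 44.5, 47.8 and 36.1 CPM in Foxa2GFPplus, against 4.21 and 0.727 CPM in Foxa2GFPminus (log2 fold change 4.12 ± 0.71, edgeR adjusted p = 0.0145). Igfbp5 was even across the Foxa2GFPplus libraries, and Igfbp3 was several times lower in Foxa2GFPplus 1 than in Foxa2GFPplus 3 and 4. Tmprss2, a membrane serine protease, had 35.1, 18.9 and 10.4 CPM in Foxa2GFPplus, against 1.53 and 0 CPM in Foxa2GFPminus (log2 fold change 4.80 ± 0.92, edgeR adjusted p = 0.0232) and was highest in Foxa2GFPplus 1. Trim67, a RING finger protein, had 18.7, 40.8 and 52.4 CPM in Foxa2GFPplus, against 3.83 and 1.45 CPM in Foxa2GFPminus (log2 fold change 3.83 ± 0.68, edgeR adjusted p = 0.0172). Kif26b, a kinesin family protein, had 16.5, 22.2 and 21 CPM in Foxa2GFPplus, against 2.68 and 0 CPM in Foxa2GFPminus and Rflnb, a filamin regulator, had 25.5, 72.3 and 86.2 CPM in Foxa2GFPplus, against 8.42 and 0.364 CPM in Foxa2GFPminus. Both rose (log2 fold changes 3.90 and 3.82), and Kif26b overlaps other gene models, so its count is uncertain.

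**Figure D5:**
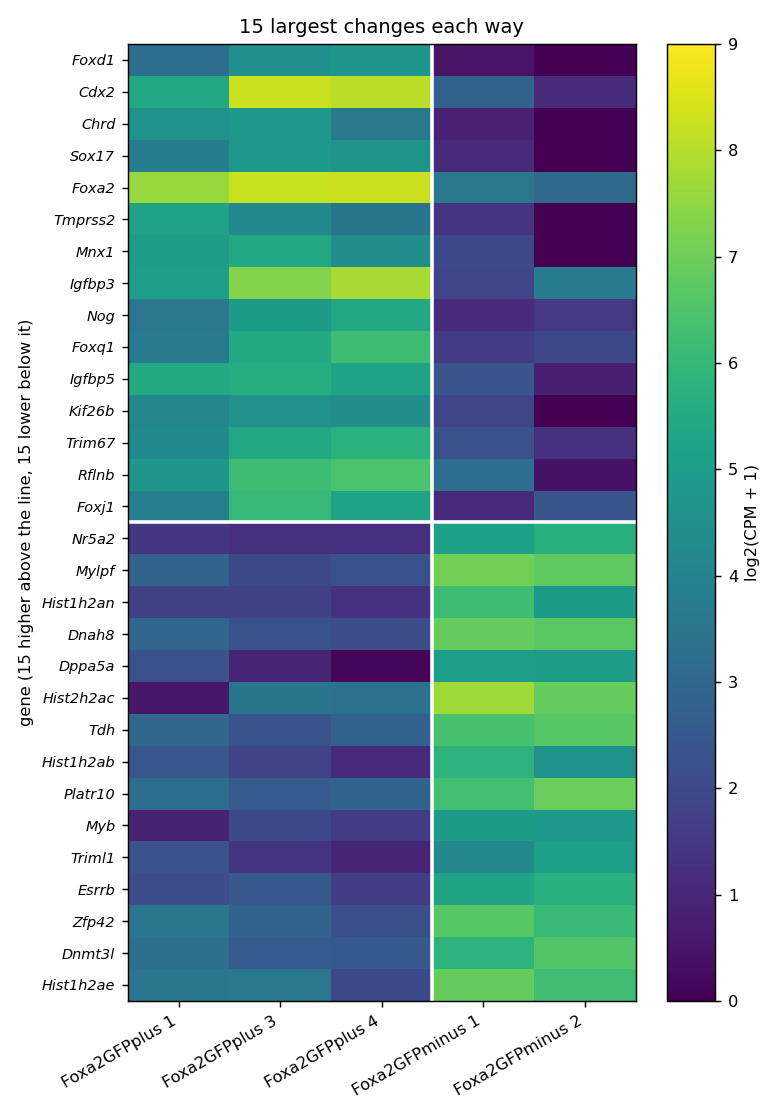
Level, as log2(CPM + 1) by colour, of the 15 autosomal genes with the largest rise (upper block) and the 15 with the largest fall (lower block) among called genes with a mean of at least 10 CPM; the 3 Foxa2GFPplus libraries are left of the white line and the 2 Foxa2GFPminus libraries right of it. Cdx2 and Foxa2 are brightest in Foxa2GFPplus 3 and 4, and the genes of the lower block are brighter in both Foxa2GFPminus libraries.

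Each signalling list described here held some calls, where 0.862% of all autosomal genes tested rose and 1.49% fell. Of 17 BMP pathway genes tested, Chrd, Nog and Id3 rose and 0 fell. Id3, a target of BMP signals, had 54.5, 165 and 134 CPM in Foxa2GFPplus, against 18.8 and 23.3 CPM in Foxa2GFPminus (log2 fold change 2.49 ± 0.47, edgeR adjusted p = 0.0218), so antagonists and a target rose together. Of 22 Wnt pathway genes, Rspo3 and Sfrp1 rose. Rspo3, which amplifies Wnt signals, had 202, 272 and 271 CPM in Foxa2GFPplus, against 91.5 and 59.6 CPM in Foxa2GFPminus (log2 fold change 1.72 ± 0.31, edgeR adjusted p = 0.0178), and Sfrp1, a secreted Wnt antagonist, had 33.9, 40.9 and 48.7 CPM in Foxa2GFPplus, against 13.8 and 14.5 CPM in Foxa2GFPminus (log2 fold change 1.54 ± 0.32, edgeR adjusted p = 0.0334). Neither gene overlapped between groups. Without Foxa2GFPplus 1, 11 of 17 BMP and 10 of 22 Wnt genes rose, against 9.6% of autosomal genes in that fit. Without Foxa2GFPminus 1, 1 BMP and 0 Wnt genes rose, and without Foxa2GFPminus 2, 0 of either did by edgeR.

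Of 14 Nodal pathway genes, Furin rose, and Gdf3 and Pcsk6 fell, against 0.862% and 1.49% of autosomal genes. Furin and Pcsk6 encode proteases that cleave Nodal precursors. Furin had 26.6, 50.1 and 54.5 CPM in Foxa2GFPplus, against 8.81 and 10.9 CPM in Foxa2GFPminus (log2 fold change 2.15 ± 0.44, edgeR adjusted p = 0.0307) and Pcsk6 had 1.52, 1.15 and 1.15 CPM in Foxa2GFPplus, against 5.36 and 12 CPM in Foxa2GFPminus (log2 fold change -2.79 ± 0.55, edgeR adjusted p = 0.0244). Gdf3, a TGF-beta ligand of pluripotent cells, had 3.88, 1.24 and 3.8 CPM in Foxa2GFPplus, against 24.1 and 25.1 CPM in Foxa2GFPminus (log2 fold change -3.09 ± 0.46, edgeR adjusted p = 0.00587). Of 17 FGF and ERK genes, Fgf8 rose and Etv5, an ERK target, fell, at 29.2, 27.3 and 30 CPM in Foxa2GFPplus, against 70.5 and 68 CPM in Foxa2GFPminus (log2 fold change -1.26 ± 0.25, edgeR adjusted p = 0.0244). Dusp6, another ERK target, had 86.8, 169 and 162 CPM in Foxa2GFPplus, against 58.2 and 48.4 CPM in Foxa2GFPminus (edgeR adjusted p = 0.0614). Of 12 Notch genes only Hes1, a repressor downstream of Notch, rose, at 63, 275 and 284 CPM in Foxa2GFPplus, against 29.1 and 29.8 CPM in Foxa2GFPminus (log2 fold change 2.82 ± 0.58, edgeR adjusted p = 0.0308). Foxa2GFPplus 1 was again much lower than Foxa2GFPplus 3 and 4. Without Foxa2GFPplus 1, 6 of 14 Nodal, 6 of 17 FGF and ERK and 4 of 12 Notch genes rose, against 9.6% of autosomal genes. In that fit 2 Nodal genes and 1 FGF and ERK gene fell, against 12.2%. Without Foxa2GFPminus 1 the calls left were the 2 falls of the Nodal list, and without Foxa2GFPminus 2 there were 0.

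All 16 markers of the naive pluripotent state were tested, 11 fell, against 1.49% of autosomal genes, and 0 rose. Their median log2 fold change was -3.07, and the list summed to 184, 235 and 264 CPM in Foxa2GFPplus and 712 and 904 CPM in Foxa2GFPminus. Without Foxa2GFPplus 1, 12 of 16 fell (12.2% of autosomal genes in that fit), and with it as the only Foxa2GFPplus library 14 of 16 fell (2.2%). Without Foxa2GFPminus 1, 8 fell, and without Foxa2GFPminus 2, 8 fell. In bulk RNA, fewer naive cells among those sorted and less of these RNAs in each cell cannot be told apart.

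Nr5a2, a nuclear receptor that can activate Pou5f1, had 1.69, 1.29 and 1.32 CPM in Foxa2GFPplus, against 34.8 and 49.1 CPM in Foxa2GFPminus (log2 fold change -4.90 ± 0.37, edgeR adjusted p = 0.000198). Tdh, which encodes the threonine dehydrogenase on which mouse embryonic stem cells rely, had 6.91, 4.11 and 5.93 CPM in Foxa2GFPplus, against 83.1 and 101 CPM in Foxa2GFPminus (log2 fold change -4.05 ± 0.30, edgeR adjusted p = 0.000198). Esrrb, an orphan nuclear receptor of the naive network, had 3.37, 4.69 and 2.13 CPM in Foxa2GFPplus, against 37.5 and 51.3 CPM in Foxa2GFPminus (log2 fold change -3.70 ± 0.40, edgeR adjusted p = 0.00111). In each of these genes all 3 Foxa2GFPplus libraries lay far below both Foxa2GFPminus libraries, and Foxa2GFPplus 1 did not stand apart. Zfp42 (Rex1, chr8:43295063-43306980), the usual reporter gene of the naive state, had 10.5, 6.22 and 3.63 CPM in Foxa2GFPplus, against 99.6 and 67.3 CPM in Foxa2GFPminus (log2 fold change -3.67 ± 0.40, edgeR adjusted p = 0.00111). Klf2, a Krüppel-like factor, had 7.08, 10.3 and 10.9 CPM in Foxa2GFPplus, against 62 and 74.2 CPM in Foxa2GFPminus (log2 fold change -2.84 ± 0.30, edgeR adjusted p = 0.000921). Dppa5a, an RNA-binding protein with several near-identical copies in the genome, so that its count is uncertain, had 3.71, 0.909 and 0.115 CPM in Foxa2GFPplus, against 31 and 30.2 CPM in Foxa2GFPminus (log2 fold change -4.60 ± 0.79, edgeR adjusted p = 0.0139).

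Fbxo15, Tfcp2l1, Dppa3, Tcl1 and Klf4 fell too, with log2 fold changes between -4.37 and -2.27. The other 5 did not pass. Nanog had 13, 25.2 and 28.7 CPM in Foxa2GFPplus, against 36.8 and 89.8 CPM in Foxa2GFPminus (log2 fold change -1.49 ± 0.41, edgeR adjusted p = 0.082), with no overlap. Klf5 had 88.5, 116 and 126 CPM in Foxa2GFPplus, against 95.4 and 160.4 CPM in Foxa2GFPminus, with overlap, and Tbx3, the one member with a positive sign, had 10.5, 38.5 and 58.8 CPM in Foxa2GFPplus, against 37.9 and 32 CPM in Foxa2GFPminus (log2 fold change 0.05 ± 0.58, edgeR adjusted p = 0.969). Tbx3 was low in Foxa2GFPplus 1 alone, where its log2 fold change was -1.75 (edgeR adjusted p = 0.0275).

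The octamer is the other motif searched above. Among the 131 genes that fell and had a window, 9 (6.87%) held ATTTGCAT, against 5.06% (4 of 79) of those that rose, 1.59% of autosomal genes tested and 1.98% of all windows. The 9 are Zfp42, Zfp296, Spp1, Chchd10, Zfp345 and 4 genes known by clone or model names. Zfp42 and Zfp296, a zinc finger factor of pluripotent cells picked after its values were seen, are printed with the octamer in capitals, 186 and 111 bases before the start. Zfp296 overlaps Gemin7 on the other strand and had 2.02, 1.34 and 2.24 CPM in Foxa2GFPplus, against 12.3 and 14.5 CPM in Foxa2GFPminus (log2 fold change -2.85 ± 0.43, edgeR adjusted p = 0.00697).
Zfp42 (chr8:43306960-43307259, minus strand): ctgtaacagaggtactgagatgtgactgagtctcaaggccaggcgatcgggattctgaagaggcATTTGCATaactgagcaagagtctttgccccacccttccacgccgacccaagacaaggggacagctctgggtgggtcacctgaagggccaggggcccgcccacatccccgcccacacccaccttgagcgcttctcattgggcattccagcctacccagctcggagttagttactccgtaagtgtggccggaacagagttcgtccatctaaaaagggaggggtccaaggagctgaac
Zfp296 (chr7:19577037-19577336, plus strand): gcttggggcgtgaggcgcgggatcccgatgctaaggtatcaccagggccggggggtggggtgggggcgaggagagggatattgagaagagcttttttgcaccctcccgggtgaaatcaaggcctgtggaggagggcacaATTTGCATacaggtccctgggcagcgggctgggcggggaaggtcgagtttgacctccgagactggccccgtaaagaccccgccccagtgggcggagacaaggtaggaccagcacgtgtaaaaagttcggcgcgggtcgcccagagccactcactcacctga
The Cdx2 window, of a gene that rose, holds the same 8 letters in reverse complement.

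Of 12 genes of general pluripotency, 6 fell and 0 rose, against 1.49% and 0.862% of autosomal genes. Sox2, a core factor of pluripotent and neural cells, had 76, 69.2 and 77.1 CPM in Foxa2GFPplus, against 243 and 309.5 CPM in Foxa2GFPminus (log2 fold change -1.90 ± 0.26, edgeR adjusted p = 0.00409). Utf1, a chromatin factor of pluripotent cells, had 9.61, 7.94 and 6.68 CPM in Foxa2GFPplus, against 54.4 and 107 CPM in Foxa2GFPminus (log2 fold change -3.34 ± 0.34, edgeR adjusted p = 0.000692). Dppa2, Dppa4, L1td1 and Gdf3 were the others, and Dppa4 had 79.9, 25.8 and 21.2 CPM in Foxa2GFPplus, against 239 and 245 CPM in Foxa2GFPminus, highest of the Foxa2GFPplus libraries in number 1. Pou5f1 had 7.75, 3.68 and 3.51 CPM in Foxa2GFPplus, against 10.3 and 14.9 CPM in Foxa2GFPminus (log2 fold change -1.38 ± 0.56, edgeR adjusted p = 0.203), and its counts are uncertain because near-identical pseudogenes can take its reads. Lin28a, an RNA-binding protein, had 129, 119.9 and 116 CPM in Foxa2GFPplus, against 84.2 and 93.8 CPM in Foxa2GFPminus and Sall4 had 112, 158 and 192 CPM in Foxa2GFPplus, against 94.6 and 161 CPM in Foxa2GFPminus. Neither passed. Without Foxa2GFPminus 1, 4 of the list fell, and without Foxa2GFPminus 2, 1 did. Of 9 primordial germ cell markers, which overlap these lists, Dppa3 and Tfap2c fell.

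Of 13 markers of the primed epiblast, the state after naive pluripotency, 0 passed by edgeR, with 5 higher at an unadjusted p under 0.05 and 3 called higher by DESeq2 and 5 by limma-voom. Of all autosomal genes, 10.6% were higher at an unadjusted p under 0.05 by edgeR, 3.5% were called higher by DESeq2 and 6.83% by limma-voom. All 13 markers had a positive sign, with a median of 0.68, against 6905 of 13114 autosomal genes. Without Foxa2GFPplus 1, 5 of 13 rose, against 9.6% of autosomal genes. With Foxa2GFPplus 1 as the only Foxa2GFPplus library the median was 0.30. Fst, an activin antagonist, had 48.4, 115 and 130.5 CPM in Foxa2GFPplus, against 16.1 and 26.9 CPM in Foxa2GFPminus (log2 fold change 2.19 ± 0.51, edgeR adjusted p = 0.0507), and Dnmt3a had 119.9, 185 and 165 CPM in Foxa2GFPplus, against 99.2 and 72.7 CPM in Foxa2GFPminus (log2 fold change 0.87 ± 0.30, edgeR adjusted p = 0.144). Of 9 DNA methylation genes, Dnmt3l, the cofactor of the de novo methyltransferases, fell, at 8.93, 4.98 and 4.89 CPM in Foxa2GFPplus, against 54.8 and 92 CPM in Foxa2GFPminus (log2 fold change -3.59 ± 0.36, edgeR adjusted p = 0.000692), and overlaps Aire on the other strand. Tet1 and Tet2, which oxidise methylcytosine, had log2 fold changes of -1.24 and -1.43 and missed the threshold (edgeR adjusted p = 0.0744 and 0.0722).

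Several of the deepest falls had no part in the pluripotency lists. Mylpf, a myosin regulatory light chain of fast skeletal muscle, had 6.24, 3.01 and 3.86 CPM in Foxa2GFPplus, against 135 and 109 CPM in Foxa2GFPminus (log2 fold change -4.85 ± 0.44, edgeR adjusted p = 0.000484). It was 1 of 14 contractile protein genes tested and the only one that fell, against 1.49% of autosomal genes. Dnah8, an axonemal dynein heavy chain, had 6.74, 3.83 and 3.34 CPM in Foxa2GFPplus, against 117 and 102 CPM in Foxa2GFPminus (log2 fold change -4.61 ± 0.42, edgeR adjusted p = 0.000484), and several gene models overlap it, among them Glo1 on the other strand. Myb, a proto-oncogene of blood progenitors, had 0.843, 3.06 and 2.01 CPM in Foxa2GFPplus, against 28.7 and 26.5 CPM in Foxa2GFPminus (log2 fold change -3.72 ± 0.49, edgeR adjusted p = 0.00324). Triml1, a tripartite motif-like protein, had 3.88, 1.58 and 0.921 CPM in Foxa2GFPplus, against 18 and 33.1 CPM in Foxa2GFPminus (log2 fold change -3.70 ± 0.60, edgeR adjusted p = 0.0101). Pecam1, an adhesion protein of endothelium that mouse embryonic stem cells also express, had 1.35, 1.29 and 0.576 CPM in Foxa2GFPplus, against 14.2 and 25.8 CPM in Foxa2GFPminus (log2 fold change -4.25 ± 0.49, edgeR adjusted p = 0.00156) and was 1 of 5 tested blood and vessel markers.

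Platr10, a noncoding RNA of pluripotent cells, had 8.43, 5.12 and 6.22 CPM in Foxa2GFPplus, against 76.6 and 121 CPM in Foxa2GFPminus (log2 fold change -3.93 ± 0.34, edgeR adjusted p = 0.000359). The histone genes Hist2h2ac, Hist1h2an, Hist1h2ab and Hist1h2ae were also among the 15 deepest falls. Hist2h2ac had 0.506, 10.4 and 9.21 CPM in Foxa2GFPplus, against 210.2 and 115 CPM in Foxa2GFPminus (log2 fold change -4.52 ± 0.70, edgeR adjusted p = 0.0076) and Hist1h2an had 2.36, 2.44 and 1.44 CPM in Foxa2GFPplus, against 72.4 and 29.1 CPM in Foxa2GFPminus (log2 fold change -4.61 ± 0.59, edgeR adjusted p = 0.00297). Histone genes have near-identical copies and each of these 4 overlaps a gene model on the other strand, so their counts are uncertain. Gm42418 also took more of the reads in Foxa2GFPminus, 29.7% and 41.0%, than in Foxa2GFPplus, 15.7% to 26.9%. The protocol targets polyadenylated transcripts, and whether these histone reads come from such transcripts was not tested.

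Some lists of markers of other tissues held calls, against 0.862% of all autosomal genes tested that rose and 1.49% that fell. Rspo3 was the only one called of 13 paraxial mesoderm markers, and Ets1, a transcription factor, of 6 neural crest markers, at 15, 27.8 and 39.7 CPM in Foxa2GFPplus, against 6.13 and 5.46 CPM in Foxa2GFPminus (log2 fold change 2.25 ± 0.50, edgeR adjusted p = 0.0398). Of 7 surface ectoderm markers the keratin gene Krt19 rose, at 78.7, 73.1 and 87 CPM in Foxa2GFPplus, against 29.1 and 22.9 CPM in Foxa2GFPminus (log2 fold change 1.61 ± 0.29, edgeR adjusted p = 0.0164), and Tfap2c fell. Of 7 regional gut markers Cdx2 and Prox1 rose and Sox2 fell. Prox1, a homeobox factor of liver, pancreas and lymphatic vessels, had 41, 74.6 and 50.6 CPM in Foxa2GFPplus, against 4.6 and 12 CPM in Foxa2GFPminus (log2 fold change 2.73 ± 0.52, edgeR adjusted p = 0.0218). Of 9 motile cilia genes, Foxj1 rose. Lateral and cardiac mesoderm had 0 of 12 by edgeR, DESeq2 and limma-voom, with 1 at an unadjusted p under 0.05, and neural ectoderm had 0 of 5 by edgeR, with 1 at an unadjusted p under 0.05 and 1 by DESeq2. The marker sums of these tissues were 172, 98.2 and 135 CPM in Foxa2GFPplus and 109.5 and 47.6 CPM in Foxa2GFPminus for lateral and cardiac mesoderm and 79.1, 107 and 96.6 CPM in Foxa2GFPplus and 53.6 and 67.6 CPM in Foxa2GFPminus for neural ectoderm. No gene of the 2-cell like list had enough reads to be tested.

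Matrix and imprinted genes added a few more, where 0.862% of all autosomal genes tested rose and 1.49% fell. Col4a1, a collagen of basement membranes, rose, at 81.1, 117 and 91.7 CPM in Foxa2GFPplus, against 35.2 and 11.3 CPM in Foxa2GFPminus (log2 fold change 2.06 ± 0.45, edgeR adjusted p = 0.0386), and Col18a1, another basement membrane collagen, fell, at 22.9, 20 and 45.5 CPM in Foxa2GFPplus, against 88.1 and 125 CPM in Foxa2GFPminus (log2 fold change -1.85 ± 0.36, edgeR adjusted p = 0.0233). Of 15 imprinted growth genes, the noncoding RNA Mirg rose, at 83.6, 84.7 and 75.5 CPM in Foxa2GFPplus, against 29.5 and 32.4 CPM in Foxa2GFPminus (log2 fold change 1.39 ± 0.31, edgeR adjusted p = 0.0416), and it holds microRNA genes within its span. Its neighbour Meg3 had 1103, 1187 and 939 CPM in Foxa2GFPplus, against 459.5 and 452 CPM in Foxa2GFPminus (log2 fold change 1.24 ± 0.30, edgeR adjusted p = 0.0544), with no overlap between groups. Reads of Col4a1, Col18a1, Ets1, Fbxo15, Foxb1, Foxq1, Furin, Myb, Pcsk6, Pfkp, Prox1, Ptch1, Rspo3, Shh, Slit2, Sox17, Sox2, Tdh, Tfcp2l1 and Trim67 are also uncertain, since each gene overlaps others. Of 16 genes of glycolysis and hypoxia, Pfkp, a phosphofructokinase, fell, at 53.6, 43.2 and 30.4 CPM in Foxa2GFPplus, against 133 and 177 CPM in Foxa2GFPminus (log2 fold change -1.87 ± 0.32, edgeR adjusted p = 0.0138).

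Lists of general cell states held 0 calls by edgeR. Of all autosomal genes, in either direction, 19.9% were at an unadjusted p under 0.05 by edgeR, 7.16% were called by DESeq2 and 19.4% by limma-voom. Cell cycle genes had 3 of 19 at an unadjusted p under 0.05, with 1 called by DESeq2 and 4 by limma-voom, and p53 targets had 2 of 11, 0 and 2. Dissociation stress genes had 6 of 12, 4 and 5 on the same counts, amino acid and ER stress genes 6 of 13, 0 and 5, and oxidative phosphorylation genes 4 of 14, 0 and 9. Cholesterol synthesis genes had 2 of 15, 1 and 2, retinoic acid genes 6 of 15, 2 and 5, and genes of epithelium and EMT 6 of 17, 3 and 6. In several, Foxa2GFPplus 1 and Foxa2GFPplus 3 and 4 had unlike values. The dissociation stress list had a median log2 fold change of 1.33, with 5 members higher and 1 lower at an unadjusted p under 0.05. Its median was 0.09 with Foxa2GFPplus 1 as the only Foxa2GFPplus library. Without Foxa2GFPplus 1, 5 of its 12 tested members rose and 1 fell, against 9.6% and 12.2% of autosomal genes. Egr1, an immediate early gene that cell handling can induce, had 20.6, 124 and 210.0 CPM in Foxa2GFPplus, against 17.6 and 17.1 CPM in Foxa2GFPminus, with Foxa2GFPplus 1 close to the Foxa2GFPminus libraries. Oxidative phosphorylation genes summed to 3858, 2185 and 1777 CPM in Foxa2GFPplus and 4303 and 4164 CPM in Foxa2GFPminus, and 9 of 14 fell without Foxa2GFPplus 1 while 0 passed by edgeR with it as the only Foxa2GFPplus library. Without Foxa2GFPplus 1, 12.2% of all autosomal genes fell. Contractile protein genes summed to 678, 148 and 186 CPM in Foxa2GFPplus and 610.0 and 558 CPM in Foxa2GFPminus. The difference between Foxa2GFPplus 1 and Foxa2GFPplus 3 and 4 was not tested.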

How the data were processed

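Raw read counts per Ensembl gene were used as the authors deposited them, in 1 table of 13 bulk libraries. The submitters' processing notes name STAR 2.5.2b, HTSeq 0.9.1, Cell Ranger 1.3.1 and mm10, with no role, and no source says whether counting used the strand. Of 54146 rows, 54079 matched GENCODE vM21, which gave names, coordinates (1-based) and overlaps. The count test was edgeR 4.0.16 in R 4.3.3 (filterByExpr, TMM, quasi-likelihood, 2-sided), fitted on the 3 Foxa2GFPplus, 2 Foxa2GFPminus and 2 Tdgf1GFPplus libraries, which share 1 estimate of the spread. Benjamini-Hochberg adjustment ran over 13654 genes of all chromosomes, and 0.05 was the threshold. The fit was tested on simulated data. DESeq2 1.42.0, limma 3.58.1 and other scalings, filters and library sets were alternatives. A level of 0 allows up to 3 reads, a floor that covers counting error only.

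Members and lists were chosen with earlier results of these data known. Named genes are the 15 largest changes each way with a mean of at least 10 CPM (numbered gene models, small RNAs and pseudogenes left out), the 3 members of each of 41 lists with the smallest adjusted p and the best of opposite sign, and a set of Foxa, node and endoderm genes. A ranking by likeness to Foxa2 was left out, since 5 libraries are too few for a correlation.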

Additional observations from a re-analysis of the deposited data

Results flagged for a closer look

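Outside the autosomal genes, 4 Y-linked genes summed to 71 reads in Foxa2GFPplus 3 and 65 in Foxa2GFPplus 4, with 0 in Foxa2GFPplus 1 and 0 in both Foxa2GFPminus libraries, although the line is male by the labels. Tdgf1GFPplus, the other sorted population, had 250 and 208. In CPM of read totals these were 4.77 and 5.06 in Foxa2GFPplus 3 and 4, and 53.6 and 39.9 in Tdgf1GFPplus. The untransfected libraries had 0 reads of these genes, and the barcodelet-transfected ones 0 to 4. On the sex and mitochondrial chromosomes, 15 X-linked genes passed the threshold of the same edgeR fit, 7 higher and 8 lower in Foxa2GFPplus, and 3 mitochondrial transfer RNA genes fell.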

How the results depend on the processing

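Against 327 genes called on all chromosomes (113 higher and 196 lower autosomal, 47 list members), DESeq2 size factors, removal of Gm42418, ribosomal protein and mitochondrial genes, autosomal genes alone and robust dispersion stayed within 1.5 times. Read totals gave 882 (701 higher; 97 list members), no filter 1172 (605 and 505; 119), DESeq2's Wald test 991 (459 and 480; 95), all 13 libraries 1363 (587 and 705; 108) and limma-voom with sample weights 2678 (896 and 1649; 154). The 5 Foxa2GFP libraries alone gave 89 (21 and 61, with 21 list members) and 4 node and notochord genes. Of the 55 named genes called besides Foxa2, 27 kept their call in that fit. Leaving out 1 library at a time gave 44 to 2909 genes, 0 to 1220 higher, 41 to 1546 lower, 12 to 176 list members, 8 to 12 naive genes lower and 0 to 9 node and notochord genes higher, and moved Foxa2's log2 fold change between 4.66 and 5.16. Of the 55 other named genes called, 55 kept their call without Foxa2GFPplus 1, 36 without 3 and 48 without 4, 27 without Foxa2GFPminus 1 and 16 without Foxa2GFPminus 2. Tbx3 turned to -1.75 with Foxa2GFPplus 1 alone. The cause of these differences was not tested. No paired analysis was possible because the groups share only replicate number 1.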

Other observations

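In 3 gene families chosen here after their values were seen, some members fell in Foxa2GFPplus and most did not pass. Of all autosomal genes tested 1.49% fell, and 12.2% did in the fit without Foxa2GFPplus 1. Of 45 replication-dependent histone genes tested, 9 fell and 0 rose by edgeR, with a median log2 fold change of -2.12. They summed to 445, 420.4 and 357 CPM in Foxa2GFPplus and 1655 and 1023 CPM in Foxa2GFPminus. Of the histone genes 24 of 41 fell without Foxa2GFPplus 1, 3 without Foxa2GFPminus 1 and 6 without Foxa2GFPminus 2. Of 29 small nucleolar RNA genes named in the annotation and tested, 8 fell and 0 rose, with 17 lower without Foxa2GFPplus 1, 4 without Foxa2GFPminus 1 and 4 without Foxa2GFPminus 2. All snoRNA and scaRNA genes together took 0.0313%, 0.0268% and 0.0249% of reads in Foxa2GFPplus and 0.176% and 0.119% in Foxa2GFPminus. Of 10 Platr noncoding RNA genes, 4 fell and 0 rose, with 7 lower without Foxa2GFPplus 1, 1 without Foxa2GFPminus 1 and 1 without Foxa2GFPminus 2. The shares of Gm42418 and of mitochondrial reads were also higher in Foxa2GFPminus, and their part in these falls was not tested. Nor was it tested whether reads of these families come from polyadenylated transcripts, which the protocol targets.

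Among the genes that fell, 4 with roles in germ cells or eggs were picked after their values were seen, whereas 7 of the 9 germ cell markers tested were not called. Tex19.1, which silences transposons in germ cells and placenta, had 12.8, 4.78 and 6.79 CPM in Foxa2GFPplus, against 40.2 and 34.9 CPM in Foxa2GFPminus (log2 fold change -2.25 ± 0.39, edgeR adjusted p = 0.0153). Morc1, a silencer of transposons in male germ cells, had 1.85, 0.287 and 0.691 CPM in Foxa2GFPplus, against 17.6 and 16.7 CPM in Foxa2GFPminus (log2 fold change -4.43 ± 0.64, edgeR adjusted p = 0.00525). Tdrd12, of the piRNA pathway, had 0, 0 and 0 CPM in Foxa2GFPplus, against 7.28 and 6.91 CPM in Foxa2GFPminus, so that its 0 reads in Foxa2GFPplus put it at least 104-fold lower against a floor of 3 reads over the group. Ooep, a maternal-effect gene, had 0, 0.383 and 0.576 CPM in Foxa2GFPplus, against 8.42 and 17.1 CPM in Foxa2GFPminus (log2 fold change -5.01 ± 0.63, edgeR adjusted p = 0.00293), and its groups did not overlap.

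Some zinc finger genes that fell lay near each other. Zfp978, Zfp985, Zfp979 and Zfp534 lie within 1 Mb on chromosome 4 (147361303 to 147702553 of mm10) and had log2 fold changes between -6.23 and -1.90. Zfp977 and Zfp936 lie within 1 Mb on chromosome 7 and had -5.02 and -5.38. Zfp979 had 28, 13.3 and 10.6 CPM in Foxa2GFPplus, against 58.6 and 68.7 CPM in Foxa2GFPminus and Zfp936 had 0, 0.144 and 0.576 CPM in Foxa2GFPplus, against 11.1 and 13.8 CPM in Foxa2GFPminus. Such neighbours have near-identical copies, so their counts are uncertain.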
